A study of Mus musculus with 6 samples.

Results

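The 10 genes described here make prostaglandins and leukotrienes, break prostaglandins down or receive the prostaglandin E2 signal. They are Ptgs2, Ptges, Ptgis, Hpgds, Hpgd, Alox5, Alox5ap, Ltc4s, Ptger2 and Ptger4, taken by name from the 19938 genes with a measured value, and each was read by 1 probe set annotated to that gene alone. RNA came from whole small intestine of mouse embryos at E18.5, shortly before birth. One group of 3 arrays carried a conditional knockout of E-cadherin (cKO), and the other group of 3 arrays was labelled wild type and served as the control. The Cre driver, the deleted exons, the strain and whether the arrays stand for separate animals are not stated in the labels, so the p-values cover the spread between these 6 arrays and that spread may be technical.

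Prostaglandins and leukotrienes are short-lived lipid signals cut from the same membrane fatty acid, arachidonate. Cyclooxygenases turn it into prostaglandin H2, which terminal synthases convert to prostaglandin E2, prostaglandin D2 or prostacyclin, whereas 5-lipoxygenase, helped by an integral membrane partner, starts the leukotriene branch. In the gut, prostaglandin E2 is best known for its part in epithelial repair and leukotrienes for theirs in the recruitment and action of leukocytes. The products are not stored, so the level of the enzymes' mRNA is 1 of several controls on output, and no lipid was measured here.

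In the cKO intestine, 5 of the 10 genes were higher and 1 was lower. Ptgs2, which makes the shared precursor prostaglandin H2, was higher, as were Ptges and Ptgis, the synthase genes of prostaglandin E2 and prostacyclin. Hpgds, a synthase gene of prostaglandin D2, was lower. Ptgds, another such gene but outside the 10, differed by -0.24 and did not pass. Alox5ap, the partner of 5-lipoxygenase, rose by 1.73 on the log2 scale, and Alox5 itself differed by 0.03 and did not pass the test. The prostaglandin E2 receptor gene Ptger4 was higher as well. Over all genes tested, 14.2% passed the same threshold, 6.81% higher and 7.36% lower in cKO. The median difference of the 10 genes was 0.52 on the log2 scale, against -0.09 over all genes. The list was drawn up with earlier results of these arrays known, so its share of changed genes is a description.

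Values are log2 expression levels as deposited, and differences are cKO minus control on that scale. They were tested with limma over all genes, with Benjamini-Hochberg adjustment and a threshold of 0.05, and SE is limma's moderated standard error. Fold changes rest on reading the deposited scale as log2, which the labels do not state. Levels of different genes cannot be set against each other, because probe sets differ in brightness. A level was called background on an array where it lay at or under the value below which 95% of 1231 olfactory, vomeronasal and taste receptor genes fell, which was 5.79 to 6.26 on cKO arrays and 6.21 to 6.36 on control arrays.

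The promoters are shown for 4 of the genes, 3 that rose and the 1 that fell, and matches over all members with a promoter sequence are counted below. Each sequence runs from 250 bases before to 50 bases after the gene's RefSeq start (build GRCm38.p6), and capitals mark matches to the searched motifs. Ptgs2 lies at chr1:150099781-150100080 on the plus strand, Ptges at chr2:30903248-30903547 on the minus strand, Ptger4 at chr15:5244138-5244437 on the minus strand and Hpgds at chr6:65144681-65144980 on the minus strand.
Ptgs2: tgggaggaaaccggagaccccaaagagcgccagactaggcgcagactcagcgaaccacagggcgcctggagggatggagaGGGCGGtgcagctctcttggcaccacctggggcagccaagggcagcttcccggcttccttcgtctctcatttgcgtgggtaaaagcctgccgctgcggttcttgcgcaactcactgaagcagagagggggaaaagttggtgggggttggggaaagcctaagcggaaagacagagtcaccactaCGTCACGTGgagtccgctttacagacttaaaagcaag
Ptges: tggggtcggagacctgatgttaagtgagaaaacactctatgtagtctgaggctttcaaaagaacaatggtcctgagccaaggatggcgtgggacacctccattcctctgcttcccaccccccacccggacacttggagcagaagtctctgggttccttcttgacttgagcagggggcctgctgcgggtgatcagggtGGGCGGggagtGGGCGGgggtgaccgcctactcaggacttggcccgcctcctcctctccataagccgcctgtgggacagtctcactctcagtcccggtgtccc
Ptger4: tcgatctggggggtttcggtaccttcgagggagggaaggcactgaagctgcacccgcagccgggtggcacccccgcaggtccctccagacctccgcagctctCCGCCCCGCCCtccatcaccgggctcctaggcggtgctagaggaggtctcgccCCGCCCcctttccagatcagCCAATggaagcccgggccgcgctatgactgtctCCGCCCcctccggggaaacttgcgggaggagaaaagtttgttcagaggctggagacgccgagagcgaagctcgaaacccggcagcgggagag
Hpgds: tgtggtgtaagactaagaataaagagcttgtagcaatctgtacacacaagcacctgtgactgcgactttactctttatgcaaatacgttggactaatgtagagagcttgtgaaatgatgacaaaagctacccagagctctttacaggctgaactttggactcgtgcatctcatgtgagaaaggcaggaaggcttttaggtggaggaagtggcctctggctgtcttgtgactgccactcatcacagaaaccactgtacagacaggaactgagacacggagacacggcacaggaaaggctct

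The RefSeq promoter table held 8 of the 10 genes, all but Ptgis and Alox5ap. The motifs were searched on both strands as the cyclic AMP response element core TGACG, the E-box CACGTG, the AP-1 form TGANTCA, the GC box GGGCGG, the TATA box TATAAA, the CCAAT box and the EGR form GCGNGGGCG. In Ptgs2 the element core and the E-box overlap by 2 bases just after the start, at bases 14 to 18 and 17 to 22, and a GC box lies at bases -170 to -165. Ptges holds 2 GC boxes, at bases -53 to -48 and -42 to -37. Ptger4 holds 4 GC boxes, the outermost pair sharing a base, and a CCAAT box. Neither Hpgds, which fell, nor Ltc4s, which was not called, holds a match to any of the 7 motifs in this window. Hpgd and Alox5, also not called, each hold a GC box. Among the 8 member promoters, 5 held a GC box, 2 a CCAAT box, and 1 each the element core, the E-box and a TATA box, while none held the AP-1 or EGR form. Of all 32851 promoters of this length, 35.7% held a GC box, 37.4% a CCAAT box, 20.8% the element core, 13.6% a TATA box, 7.81% the AP-1 form, 7.15% the E-box and 5.55% the EGR form. A match is a run of letters and not a binding site, and a window without one says nothing about the factor.

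Ptgs2 (probe set 10350516) encodes cyclooxygenase-2, the inducible enzyme that makes prostaglandin H2. It read 7.55, 7.62 and 7.46 in cKO 1, 2 and 3, against 6.10, 5.87 and 6.07 in controls 1, 2 and 3. Every cKO array lay above every control array, with a gap of 1.36 between the groups, and no cKO value lay at background while all 3 control values did. The means were 7.54 ± 0.08 in cKO and 6.01 ± 0.13 in controls (SD, n = 3 each), a difference of 1.53 (SE 0.12, limma adjusted p = 0.00072). Set against the background level of the control arrays, Ptgs2 was at least 2.41-fold higher in cKO. It stood 65th by p among the 19938 genes, and it kept its call without any 1 of the 6 arrays (highest adjusted p = 0.0072).

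Ptges (probe set 10481518), the microsomal synthase that makes prostaglandin E2 and acts together with cyclooxygenase-2, moved less. Its values were 7.85, 7.60 and 7.94 on cKO arrays, against 7.23, 7.13 and 6.99 on control arrays. The groups did not overlap and were 0.37 apart at their nearest values, and every array was above background. The means of 7.80 ± 0.18 in cKO and 7.12 ± 0.12 in controls (SD, n = 3 each) differed by 0.68 (SE 0.13, limma adjusted p = 0.016), a 1.60-fold increase. The call was lost without cKO 3, control 2 or control 3 (limma adjusted p = 0.065, 0.071 and 0.068), with differences of 0.61, 0.69 and 0.62.

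Ptgis (probe set 10489878) encodes prostacyclin synthase, an enzyme of vessel walls and smooth muscle. It read 7.23, 7.22 and 7.64 in cKO, against 6.76, 6.65 and 6.68 in controls. The cKO arrays were all higher, cKO 3 most of all, while the controls lay close together. The means were 7.36 ± 0.24 in cKO and 6.70 ± 0.06 in controls (SD, n = 3 each), and the difference was 0.67 (SE 0.14, limma adjusted p = 0.023). Without cKO 3 the difference was 0.53 and was not called (limma adjusted p = 0.060), and the call was also lost without control 1, 2 or 3 (0.058, 0.098 and 0.084). Markers of smooth muscle rose with it. All 10 of them passed the test, 4 of them also without control 2 and 6 without control 3, and their mean level was 10.39 to 10.62 on cKO arrays and 9.49 to 9.77 on control arrays. Of 10 endothelial markers 1 passed, Eng, whose call was lost whichever array was left out, and the list's mean levels were 8.47 to 8.57 in cKO and 8.26 to 8.37 in controls. The part of these cells in the change of Ptgis was not tested, and in whole tissue fewer or more cells of a type cannot be told apart from less or more RNA per cell.

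Hpgds (probe set 10545101) was the member that fell. It encodes hematopoietic prostaglandin D synthase, found in mast cells, some macrophages and, in mouse intestine, tuft cells. It read 5.45, 6.16 and 5.98 in cKO, against 7.58, 7.41 and 7.66 in controls. The highest cKO value lay 1.25 below the lowest control value, and cKO 1 and cKO 3 lay at background, so the size of the fall is a measured value near the lower limit of the arrays. The means were 5.86 ± 0.37 in cKO and 7.55 ± 0.13 in controls (SD, n = 3 each), and the difference was -1.69 (SE 0.19, 95% interval -2.14 to -1.23, limma adjusted p = 0.0023). In size of decrease it stood 173rd among the 19938 genes, and it kept its call without any 1 of the 6 arrays (highest adjusted p = 0.017).

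**Figure D1:**
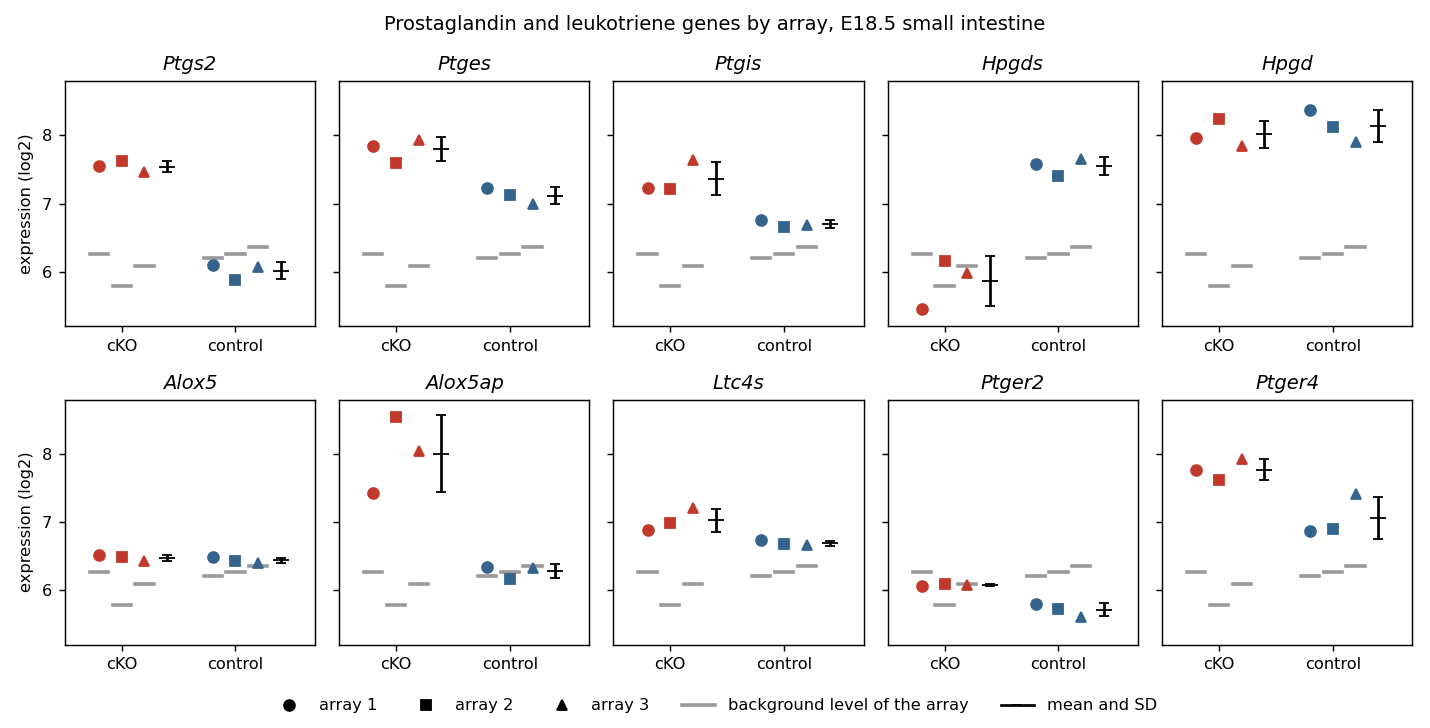
Expression (log2) of the 10 genes on each array, cKO left of control, with a symbol per array, a black bar for the mean and SD of 3 arrays and a grey bar for each array's background level. Ptgs2, Ptges, Ptgis, Alox5ap, Ltc4s, Ptger2 and Ptger4 lie higher on all 3 cKO arrays, Hpgds lies lower on all 3, and Hpgd and Alox5 overlap between the groups.

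The plot of expression by array shows where these levels lie: Ptgs2 is well above the background bars in cKO and at or below them in controls, whereas Hpgds sits around them in cKO and well above them in controls. Cell types known for Hpgds gave the following marker levels. Of 12 mast cell markers none passed limma's test, and 3 had an unadjusted p under 0.05. Of these, Kit (0.46) and Hdc, its controls at background, were higher in cKO, and Mcpt2 was lower. The protease genes Mcpt2, Mcpt4, Tpsb2, Tpsab1 and Cma1 and the receptor genes Fcer1a and Ms4a2, 7 of the 12, were at background on every array. The mean level of the list was 5.79 to 5.96 on cKO arrays and 5.82 to 6.04 on control arrays. Of 12 tuft cell markers 1 fell, the phospholipase gene Plcb2 (-0.73, SE 0.18, limma adjusted p = 0.037), a call that held in 1 of the 6 fits with an array left out, that without cKO 1. The tuft cell regulator gene Pou2f3 differed by 0.02 and Dclk1 by -0.20, and Avil, Chat, Rgs13 and Gnat3 were at background on every array. The tuft list averaged 6.28, 5.78 and 6.13 on cKO arrays, against 6.19, 6.28 and 6.34 on control arrays, so the groups overlapped. Macrophage markers were mostly higher, with 8 of 12 passing the test upward and 1, Mertk, downward, while Hpgds was lower. The part of any cell type in the fall of Hpgds was not tested.

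Hpgd (probe set 10571840) encodes 15-hydroxyprostaglandin dehydrogenase, which inactivates prostaglandin E2 and is abundant in differentiated gut epithelium. Its values were 7.97, 8.24 and 7.85 in cKO, against 8.37, 8.13 and 7.90 in controls. The groups overlapped, and the difference of -0.11 (95% interval -0.50 to 0.27, limma adjusted p = 0.68) did not pass the test. In the exact two-sided permutation test over arrays Hpgd gave p = 0.6. Enterocyte markers fell on the same arrays: 8 of 12 passed the test downward and none upward. Their differences ran from -3.16 for the lactase gene Lct to -0.36 for the apolipoprotein gene Apoa1, with a median of -1.07, and the part of enterocytes in the level of Hpgd was not tested.

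In the leukotriene branch, Alox5ap (probe set 10527638) rose. It encodes the membrane protein that presents arachidonate to 5-lipoxygenase and is known from myeloid cells. It read 7.42, 8.55 and 8.04 in cKO, against 6.34, 6.16 and 6.33 in controls. All cKO values were higher, with a gap of 1.08 at the nearest pair, but they were spread over more than 1 log2 unit, with cKO 2 at the top. Controls 2 and 3 lay at background and control 1 just above it. The means were 8.0 ± 0.57 in cKO and 6.28 ± 0.10 in controls (SD, n = 3 each), a difference of 1.73 (SE 0.26, limma adjusted p = 0.0062). The call held without any 1 of the 6 arrays, with differences of 1.45 to 2.02 and adjusted p up to 0.033.

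Alox5 (probe set 10547153), the 5-lipoxygenase that makes leukotriene A4, showed no such shift. It read 6.51, 6.48 and 6.42 in cKO, against 6.48, 6.43 and 6.40 in controls, all above background. The groups overlapped almost fully, and the difference was 0.03 (95% interval -0.21 to 0.27, limma adjusted p = 0.85, exact permutation p = 0.5). Control 3 exceeded its background level of 6.36 only slightly, so there was little room to measure a fall.

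Ltc4s (probe set 10385583) encodes leukotriene C4 synthase, which attaches glutathione to leukotriene A4. Its values were 6.88, 6.99 and 7.21 in cKO, against 6.73, 6.67 and 6.66 in controls. The groups did not overlap, yet the gap was 0.15, and the difference of 0.34 (SE 0.12, 95% interval 0.05 to 0.63) did not pass over all genes (limma adjusted p = 0.12). Ltc4s, Alox5ap and Ptges belong to 1 family of small membrane proteins of eicosanoid and glutathione metabolism. Their differences were 0.34, 1.73 and 0.68, and the first of these did not pass the test. Mgst2 and Mgst3, of the same family but outside the 10, differed by -1.03 and -0.49, and neither passed.

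On the cKO arrays, where Alox5ap was high, macrophage markers mostly rose and a minority of neutrophil markers passed the test. No mast cell or eosinophil marker passed. Of 12 macrophage markers 8 rose and 1, Mertk, fell (-1.15), a call lost without cKO 2, cKO 3, control 2 or control 3. Cd68 rose by 1.05, the complement gene C1qb by 1.24 and the lysozyme gene Lyz2 by 2.10. Csf1r, the receptor gene that defines the lineage, read 9.24, 9.35 and 9.52 in cKO, against 9.10, 9.20 and 9.26 in controls, and differed by 0.18 (limma adjusted p = 0.36). The mean of the 12 markers was 8.34, 8.60 and 8.56 on cKO 1, 2 and 3, against 7.70, 7.73 and 7.61 on the controls. Of 12 neutrophil markers 3 passed the test upward. Elane, above background on every array, was lower on all cKO arrays (-0.40) and did not pass (limma adjusted p = 0.11). The surface protein gene Ly6g read 6.52, 9.27 and 6.54 in cKO, against 4.18, 4.0 and 4.32 in controls. Its cKO mean was at least 2.24-fold higher over controls at background, a bound that rests mostly on cKO 2. The values of cKO 1 and cKO 3 exceeded the background levels of the control arrays, 6.21 to 6.36, only slightly. Cxcr2 and S100a8 were above background on cKO 2 alone, at 7.32 and 6.46, so no difference is given for them. All 3 calls were lost without any 1 of the controls. Mpo, Camp, Ngp and Mmp8 were at background on all arrays. Both lists and Alox5ap were highest on cKO 2, and the part of these cells in the rise of Alox5ap was not tested.

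Of the prostaglandin E2 receptors, EP2 and EP4 raise cyclic AMP, and their genes are the receptor genes among the 10. Ptger4 (probe set 10427461), the EP4 receptor gene, read 7.77, 7.62 and 7.92 in cKO, against 6.87, 6.90 and 7.41 in controls. Control 3 stood above the other controls, and the nearest values of the groups were 0.21 apart. The means of 7.77 ± 0.15 in cKO and 7.06 ± 0.30 in controls (SD, n = 3 each) differed by 0.71 (SE 0.17, limma adjusted p = 0.036). The call was lost without cKO 1, cKO 3, control 1 or control 2 (limma adjusted p = 0.073, 0.12, 0.11 and 0.14), with differences of 0.62 to 0.71.

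Ptger2 (probe set 10414271), the EP2 receptor gene, read 6.06, 6.09 and 6.08 in cKO, against 5.80, 5.72 and 5.61 in controls. The groups did not overlap, but the values of cKO 1 and cKO 3 and all 3 control values lay at background. The difference of 0.37 (SE 0.11) did not pass over all genes (limma adjusted p = 0.064), and no fold is given at this level. In the exact permutation test over arrays 8 of the 10 genes gave p = 0.1, the smallest possible with 3 against 3 arrays. These are the 8 genes whose groups did not overlap, 7 higher and 1 lower in cKO. Of all genes tested, the groups did not overlap in 35.4%, with 16% higher and 19.3% lower in cKO.

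**Figure D2:**
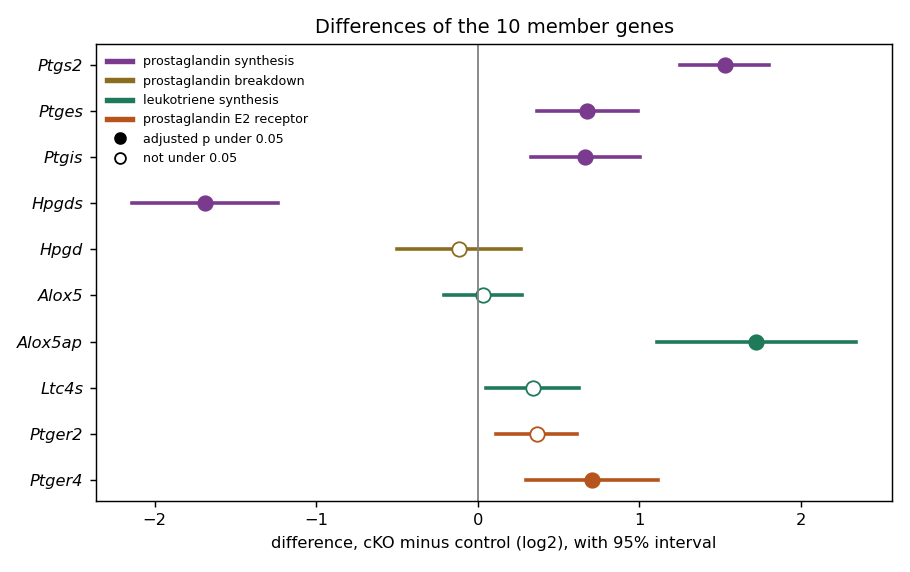
Difference, cKO minus control, on the log2 scale for the 10 genes, coloured by role, with limma's 95% interval; filled points passed the threshold of 0.05 over all genes. The intervals of Ptgs2 and Alox5ap lie wholly above 1, that of Hpgds lies wholly below -1, and those of Hpgd and Alox5 include 0.

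The plot of differences sets the branches side by side. The intervals of Ptgs2 (1.25 to 1.81) and Alox5ap (1.11 to 2.34) overlap, and neither overlaps with those of Ptges (0.37 to 0.99) and Ptgis (0.33 to 1.00). Differences between genes were not tested. Ptgs2 was at background on all 3 control arrays and Alox5ap on 2, so their intervals describe measured values near the lower limit. The other genes of the pathway were described from 4 lists of genes outside the 10.

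Of 18 measured genes of arachidonate release and prostanoid synthesis, 1 rose and 2 fell. Ptgs1, the other cyclooxygenase gene, had no probe set of its own and is not among them. The median difference was -0.16, against -0.09 over all genes, and the share that passed was 16.7%, against 14.2%. Pla2g4a, the cytosolic phospholipase that releases arachidonate, rose by 0.55 (SE 0.11, limma adjusted p = 0.018), with 8.79, 8.96 and 8.94 in cKO, against 8.42, 8.35 and 8.26 in controls. The call was lost without cKO 3, control 2 or control 3. Pla2g6, a calcium-independent phospholipase gene, fell by 0.79 (SE 0.14, limma adjusted p = 0.011), and Cbr1, a carbonyl reductase that can act on prostaglandin E2, by 0.91 (SE 0.14, limma adjusted p = 0.0070). The other prostaglandin E synthase genes Ptges2 and Ptges3 differed by -0.16 and 0.16 (limma adjusted p = 0.42 and 0.45), and the lipocalin-type prostaglandin D synthase gene Ptgds by -0.24 (limma adjusted p = 0.32). Tbxas1, the thromboxane synthase gene, differed by 0.41 (95% interval -0.08 to 0.91), and Pla2g3 and Pla2g10 by -0.31 and -0.33. Tbxas1 was at background on every control array and on 1 cKO array, and Pla2g3 on 2 arrays of each group.

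Of 12 measured leukotriene and lipoxygenase enzymes, 1 rose and 2 fell, with a median of -0.18. Lta4h, which makes leukotriene B4 from leukotriene A4, fell by 0.65 (SE 0.12, limma adjusted p = 0.014). It read 9.25, 9.53 and 9.23 in cKO, against 9.98, 9.99 and 9.98 in controls, and the call was lost without cKO 3, control 2 or control 3. The enzymes that trim leukotriene C4 moved apart: Ggt5, which removes glutamate, rose by 0.87 (SE 0.11, limma adjusted p = 0.0036), and Dpep1, a membrane dipeptidase, fell by 0.87 (SE 0.19, limma adjusted p = 0.025). Ggt5 read 7.36, 7.28 and 7.10 in cKO, against 6.38, 6.37 and 6.38 in controls. With an array left out, Dpep1 kept its call in 1 of 6 fits, that without control 1. Mgst2 differed by -1.03, but its values of 7.55, 8.12 and 6.58 in cKO overlapped those of 8.72, 8.05 and 8.56 in controls (limma adjusted p = 0.12), and Mgst3 and Alox8 differed by -0.49 and -0.44. Alox8 was at background on every cKO array and on 2 controls, and Alox12, Alox12e, Aloxe3 and Dpep2 were at background on all arrays.

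Of 11 other prostanoid and leukotriene receptor genes, 1 rose, with a median of -0.09. Cysltr1, the receptor gene for leukotriene D4 that leukocytes carry, read 6.62, 6.59 and 6.65 in cKO, against 6.19, 5.85 and 5.97 in controls. Its controls were all at background, so it was at least 1.27-fold higher (limma adjusted p = 0.017), a call lost without cKO 3, control 2 or control 3. Ptger3, the EP3 receptor gene, differed by 0.36 (95% interval -0.11 to 0.82), Ptgfr by -0.27 and Ptgdr by -0.32. Ptgdr2, Ptgfr, Cysltr2 and Oxgr1 were at background on all arrays.

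Of 8 genes of eicosanoid transport and breakdown, 3 rose and 2 fell, with a median of -0.08. Abcc1, which exports leukotriene C4, rose by 0.96 (SE 0.11, limma adjusted p = 0.0023), with 7.42, 7.25 and 7.34 in cKO, against 6.45, 6.33 and 6.36 in controls. The prostaglandin reductase gene Ptgr1 rose by 0.66 (SE 0.15, limma adjusted p = 0.030), a call lost without cKO 1, cKO 3, control 2 or control 3. Ptgr2, another prostaglandin reductase, fell by 0.81 (SE 0.12, limma adjusted p = 0.0064). Cyp4f18, which oxidises leukotriene B4 in mouse neutrophils, was at least 1.48-fold higher over controls at background (limma adjusted p = 0.012), a call lost without control 2. Ephx2, the soluble epoxide hydrolase gene, fell by 1.74 (SE 0.24, limma adjusted p = 0.0039). Slco2a1, the prostaglandin uptake carrier that works together with Hpgd, read 8.64, 8.92 and 8.38 in cKO, against 8.84, 9.13 and 9.82 in controls, groups that overlapped (limma adjusted p = 0.17). Abcc4, which exports prostaglandin E2, differed by -0.35 and Cyp4f14 by 0.19, and neither passed.

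**Figure D3:**
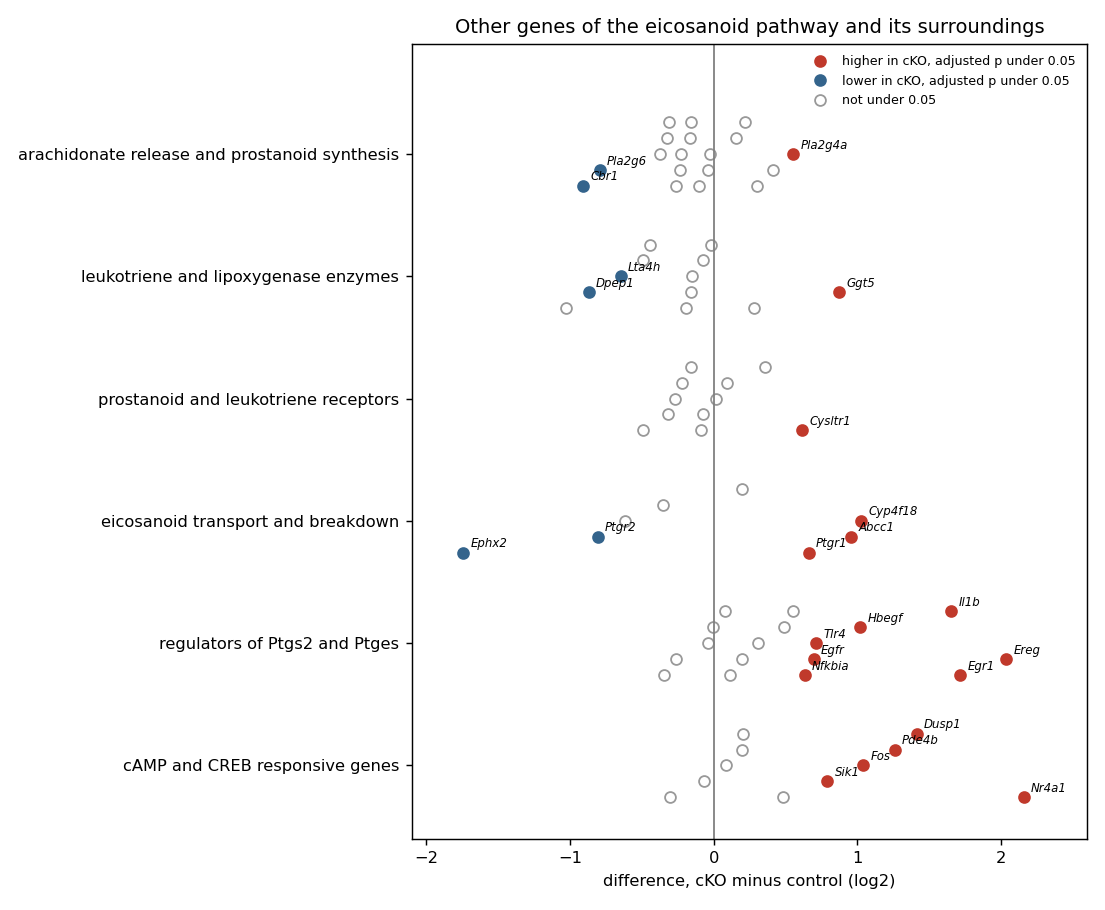
Difference, cKO minus control (log2), of the measured genes of 6 lists around the 10 member genes, 1 point per gene, spread vertically for legibility; filled points passed the threshold and are named. Lists of enzymes hold changes in both directions, whereas the 7 genes of the list of Ptgs2 and Ptges regulators and the 5 cyclic AMP responsive genes that passed were higher in cKO.

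Known regulators of Ptgs2 or Ptges, most of them inducers but also negative regulators, were looked at next, a list that includes genes already known to be high on these arrays and so is no separate evidence. Of 17 measured, 7 passed the test upward and none downward, with a median of 0.49, and 4 passed without control 2. The cytokine gene Il1b read 7.30, 7.23 and 6.77 in cKO, against 5.45, 5.30 and 5.59 in controls, which were at background, and was at least 1.77-fold higher (limma adjusted p = 0.0016). Egr1, a transcription factor that drives Ptges, was at least 2.69-fold higher and the EGFR ligand gene Ereg at least 2.55-fold higher, also over controls at background (limma adjusted p = 0.00059 and 0.0012). Hbegf and its receptor gene Egfr rose by 1.02 and 0.70 and the NF-kB inhibitor gene Nfkbia by 0.63, and the calls of Egfr and Nfkbia were lost without control 2. The endotoxin receptor gene Tlr4 was the remaining call, but it lay at background on cKO 1, cKO 3 and all controls, so no size is given, and the call was lost without any 1 of the 3 cKO arrays or control 2. The NF-kB subunit gene Rela differed by 0.55 (limma adjusted p = 0.051), Cebpd by 0.49 (0.089 as adjusted p) and Elavl1, which stabilises Ptgs2 mRNA, by 0.31 (0.092 as adjusted p). Tnf read 6.13, 5.47 and 6.36 in cKO, against 6.40, 6.37 and 6.22 in controls, and Zfp36, which destabilises Ptgs2 mRNA, differed by -0.003 (limma adjusted p = 0.36 and 0.99).

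EP2 and EP4 act through cyclic AMP, and 11 genes known to respond to it were measured. The list was chosen with earlier results of these arrays known and so is no separate evidence. The part of EP2 or EP4 in the levels of its genes was not tested. Of the 11 genes 5 rose and none fell, with a median of 0.48. Nr4a1 rose by 2.16 (SE 0.11), Dusp1 by 1.41 (SE 0.15), Fos by 1.04 (SE 0.23) and Sik1 by 0.79 (SE 0.10), with limma adjusted p of 0.00038, 0.0017, 0.025 and 0.0036. Pde4b, a cyclic AMP phosphodiesterase gene, was at least 1.67-fold higher over controls at background (limma adjusted p = 0.0023). Crem and Per1, which respond to cyclic AMP through CREB, differed by 0.21 and 0.20 and did not pass, nor did Pde4d at 0.48, and Nr4a2 differed by -0.30 with cKO 2 lowest. Several of these genes respond to growth factors and tissue handling as well, and the call of Fos was lost without cKO 1, cKO 3, control 1 or control 2.

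**Figure D4:**
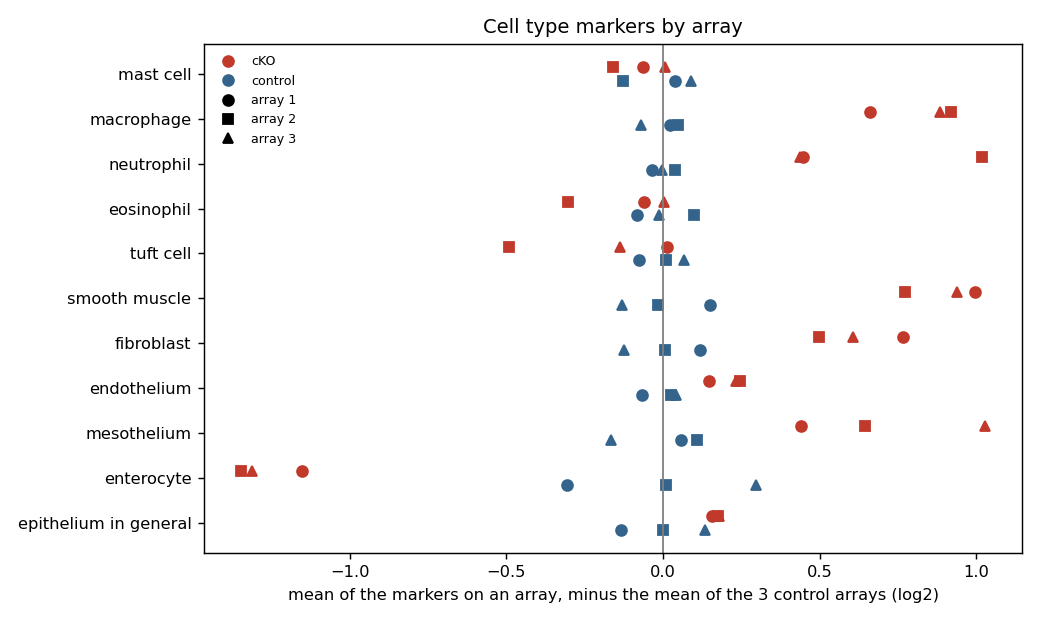
Mean level of each cell type's markers on each array, given as the distance from the mean of the 3 control arrays (log2), cKO drawn above control in each row. Macrophage, neutrophil, smooth muscle, fibroblast and mesothelial markers lie higher on all cKO arrays, as do endothelial and general epithelial markers by less (the general epithelial median difference was -0.15), enterocyte markers lie lower, and mast cell, eosinophil and tuft cell markers overlap between the groups.

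The plot of cell type markers shows what else moved on the arrays. Of 10 fibroblast markers 8 rose, a count of 3 without control 2 or control 3 and of 4 without cKO 1 or cKO 3, with Pdgfra at 1.23 and Pdgfrb at 1.02, and list means of 10.14 to 10.41 in cKO and 9.51 to 9.76 in controls. Of 7 mesothelial markers 4 rose, with Lrrn4 at 1.21 and Msln at 1.27. The count was 1 without control 3 and 2 without cKO 3, control 1 or control 2. Fibroblasts and mesothelium can both express Ptgs2, Ptges and Ptgis, and their part in those increases was not tested. Of 9 general epithelial markers 3 rose, the keratin genes Krt8, Krt18 and Krt20, and 2 fell, Cdx1 and Cdx2, while Epcam differed by -0.10. The calls of Krt20 and Cdx1 were lost without control 2 or cKO 3, among others. None of 5 eosinophil markers passed limma's test (1 at unadjusted p under 0.05). Epcam, Vil1 and Cdh17 read above 10 on all arrays, well above background, so epithelial RNA was present in both groups. The enterocyte marker Sis was at background on every array.

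The 5 genes whose profile over the 6 arrays was most like that of Ptgs2, by Pearson correlation among the 2628 changed genes above background on every array of at least 1 group, were Entpd1, Nab1, Itga4, Slit2 and Dennd5a. Their correlations were 0.9988 to 0.9995, over 6 arrays that fall into 2 groups, and all 5 genes separate those groups as Ptgs2 does. Only genes that had passed this same comparison were ranked, so high correlations were built in. All 3 control values of Ptgs2 lay at background, so differences among them say little about which genes are most alike. Entpd1, an enzyme that breaks down extracellular ATP, rose by 0.91 (SE 0.10, limma adjusted p = 0.0023). It read 8.24, 8.27 and 8.22 in cKO, against 7.38, 7.26 and 7.37 in controls. Nab1, a corepressor of EGR factors, rose by 0.50, the integrin gene Itga4 by 0.77, the guidance ligand gene Slit2 by 0.85 and Dennd5a, a regulator of Rab proteins, by 0.71. The call of Nab1 was lost without cKO 3 or any 1 of the controls.

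Among the arrays themselves, correlations over genes were 0.972 to 0.978 within cKO, 0.981 to 0.987 within controls and 0.929 to 0.966 between the groups. On cKO 2 the receptor genes used for the background shifted by -0.37 from the mean of the controls, where the other arrays lay between -0.06 and 0.09. Without cKO 2, 6 of the 10 genes passed, as with all arrays, and 12.5% of all genes tested did. Cdh1, the targeted gene, read 9.70, 8.38 and 8.91 in cKO, against 9.86, 9.82 and 10.15 in controls, and the difference of -0.95 (SE 0.31) did not pass (limma adjusted p = 0.088). cKO 1 held the highest cKO value and lay close to the controls, and without it the difference of Cdh1 was -1.30 (limma adjusted p = 0.012). Cdh1 passed in 1 of the 6 fits with an array left out, this one. Without cKO 1, 5 of the 10 genes passed, and 13.6% of all genes tested did. The labels do not say whether the Cdh1 probes lie inside the deleted exons.

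**Figure D5:**
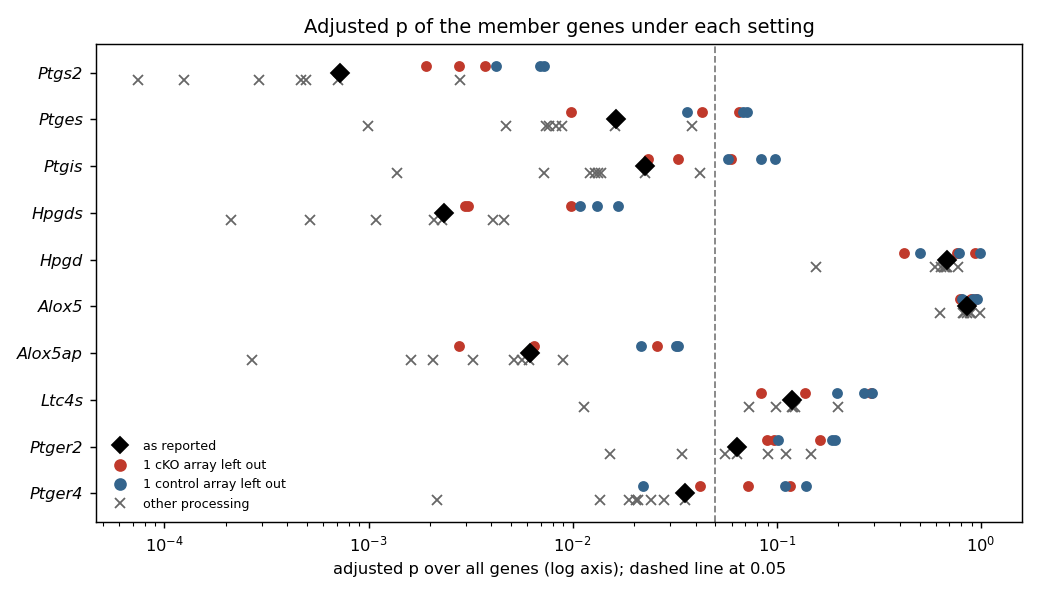
Adjusted p over all genes (log axis) of each of the 10 genes as reported, with 1 cKO or 1 control array left out and under other processing; the dashed line marks 0.05. Ptgs2, Hpgds and Alox5ap stay left of the line in every setting drawn, Ptges, Ptgis and Ptger4 cross it when certain arrays are left out, and Hpgd and Alox5 stay right of it.

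The plot of adjusted p by setting separates 3 genes from the rest. Ptgs2, Hpgds and Alox5ap passed without any 1 of the 6 arrays. Ptges passed in 3, Ptgis in 2 and Ptger4 in 2 of the 6 such fits, and Ltc4s, Ptger2, Hpgd and Alox5 in none of them.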

How the data were processed

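The deposited log2 values, for 35512 probe sets on each array, were made by the authors with dChip from Affymetrix Mouse Gene 1.0 arrays, per the series design text. The dChip version, background correction and normalization are not stated in the labels, and the log2 scale was read from the range of 0 to 14.07. Values were used as deposited. Of the probe sets, 21789 had 1 gene symbol, 1621 several and 12102 none listed. Symbols were updated by gene identifier (21698 found, GRCm38.p6), and the brightest probe set of a gene was kept, which left 19938 genes. Promoter sequences are from RefSeq. Arrays carry no read depth, and their number limits the precision.

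Each gene was tested with limma 3.58.1 in R 4.3.3 (lmFit and eBayes, two-sided, all 6 arrays, no covariate), and the fit was tested on simulated data. Alternatives were quantile normalization, median centring, array weights, a replicate block, removal of dim genes, a trended variance, the mean of a gene's probe sets and leaving out each array. The members and lists were chosen with earlier results of these data known. The named genes are the members, Cdh1, list genes that passed with up to 3 that did not, up to 3 markers per cell type or markers at background, and the 5 genes most like Ptgs2. A few others (Apoa1, Ptges2, Ptges3, Ptgds, Tnf, Zfp36, Nr4a2, Csf1r, Mertk, Elane, Pou2f3, Dclk1, Epcam, Krt20, Cdx1, Vil1 and Cdh17) were named after their values were seen, for their known roles. Of the listed symbols, 11 entries matched no single-gene probe set and are not analysed here. Among them are Ptgs1, the other cyclooxygenase gene, and Il1r1, Nfkb1 and Areg.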

Additional observations from a re-analysis of the deposited data

How the results depend on the processing

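Ptgs2, Hpgds and Alox5ap kept their direction and their call under every alternative that gave them a value. With array weights 5834 genes were called, against 2825 as reported, and Ltc4s (0.46, limma adjusted p = 0.011) and Ptger2 (0.36, limma adjusted p = 0.015) passed. Ptger2 also passed without the dimmest 25% of genes, where fewer genes were tested (0.37, limma adjusted p = 0.034). Cdh1 passed with median centring (-0.93), with array weights (-0.89), without the dimmer 50% of genes (-0.95) and with a trended variance (-0.95). With 1 array left out the number of called genes ran from 1226 to 2713 and that of called members from 3 to 6, with 3 without cKO 3 or control 2. The differences then ran from 0.61 to 0.78 for Ptges, 0.53 to 0.74 for Ptgis, 0.62 to 0.89 for Ptger4 and -1.30 to -0.64 for Cdh1. Hpgd ran from -0.23 to 0.005 and turned direction without control 1 (0.005), a value that was not called. Other causes were not tested. Same-numbered arrays of the groups had deviations that correlated at -0.08, 0.13 and 0.14, and 2 of 6 arrays correlated best with their own number, so the numbers were not treated as pairs. With the replicate block 2212 genes and 6 members were called. Control 2 and 3 and cKO 3 lowered the count of genes most when left out (1226, 1505 and 1517). Without the dimmer 50% of genes only 5 members had a value. Signal near background limits what can be said of Ptger2, Alox5 and the cKO level of Hpgds.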
